A study of Equus caballus with 4 samples.

Results

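Matrix metalloproteinases (MMPs) and the tissue inhibitors of metalloproteinases (TIMPs) were described in equine satellite cells, the stem cells of horse skeletal muscle. The members were *MMP1*, *MMP2*, *MMP3*, *MMP9*, *MMP13*, *MMP14*, *TIMP1*, *TIMP2*, *TIMP3* and *TIMP4*, and every non-control probe that carried one of these names was taken. This gave 34 probes of 10 genes out of 43603 probes on the array. The cells came from the m. semitendinosus of young stallions. All of them were on day 3 of differentiation and all had received 3 mM hydrogen peroxide (H2O2) for 1 h. In the HMB-treated group β-hydroxy-β-methylbutyrate, a metabolite of leucine, was present at 50 µM for 24 h, with H2O2 in the last hour. The control group received H2O2 without HMB. The 4 arrays were 2-colour Agilent horse arrays of 1 slide, and each carried HMB-treated RNA in Cy5 and control RNA in Cy3.

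The dyes were never swapped, so dye and treatment cannot be told apart. The description of every array carries the same control replicate number, so the 4 control samples may not be separate cultures, and the methods select 1 culture by viability and fusion for the further work, so all arrays may stem from 1 horse. The p-values therefore measure the spread between 4 ratios, which may in part be technical. Cells without H2O2 were not analysed here, so nothing below measures the effect of H2O2 itself.

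MMPs are zinc-dependent proteases that are made as inactive precursors and cut collagens, gelatins, proteoglycans and other proteins of the matrix around cells. TIMPs bind the active site of the MMPs and block it. In skeletal muscle the gelatinases *MMP2* and *MMP9* are known for opening the basement membrane around fibres, where satellite cells lie and across which they move after injury. An array measures RNA only, so neither the amount of secreted protein nor its proteolytic activity is known from these data.

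The values are log2 ratios of HMB-treated over control, so 1 is a doubling, and FC is the fold change without the sign. A probe was tested when 1 channel or both lay well above background on all 4 arrays. This held for 24673 probes, among them 22 of the 34 member probes and 7 of the 10 genes. A probe was called at an adjusted p of at most 0.05 and an FC of at least 1.3 in limma's moderated test, with the Benjamini-Hochberg adjustment over all tested probes. On the whole array 28.6% of the tested probes were called, 12.1% higher with HMB and 16.4% lower. Of the 22 tested member probes 4 were called higher and 7 lower. Without array 4, 7 were called higher, with 3 *TIMP1* probes added. Counted by gene, with each gene given by its brightest tested probe, 3 of 7 were higher and 1 was lower, beside 10.1% higher and 17.2% lower (27.3% in all) of the 8325 tested gene symbols. *MMP3* passed the filter only through the HMB channel, in which it is high, so it had to differ to be tested and its call is a description. Among the other 6 tested genes 2 were higher and 1 was lower. The 7 lower probes all belonged to *TIMP2* and 5 of them shared a single site, so they are not 7 separate results.

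*MMP3*, *MMP2* and *MMP9* were higher with HMB, and *TIMP2* was lower. *MMP14*, *TIMP1* and *TIMP3* were not called. *MMP1* gave Cy5 signal on some arrays without passing the filter, and *MMP13* and *TIMP4* were not well above background in either channel.

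**Figure D1:**
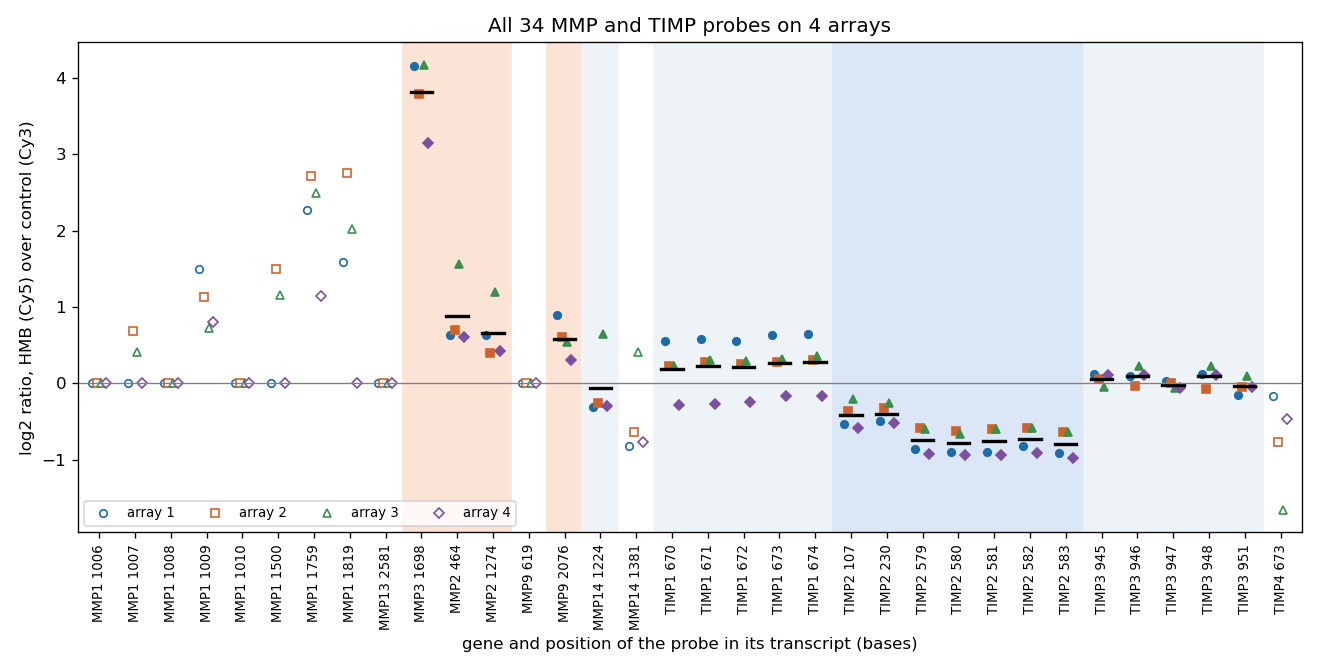
The vertical axis gives the log2 ratio of HMB-treated over control for each of the 34 probes, with 1 symbol per array and a black line at the mean of the tested probes; orange and blue fields mark probes called higher and lower, pale grey fields tested probes without a call, and open symbols untested probes. The *MMP3* probe stands at a mean of 3.82 and the 7 *TIMP2* probes lie below 0 on every array.

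The probes are 60 bases long, and the choice of probe decided what could be measured, so the informative ones are given here in the sense direction, as deposited. The first 2 are gelatinase probes that match each other in part. Aligned without gaps they share 28 of 48 bases, which stand in capitals. The *MMP2* probe of this pair gave signal on all arrays and the *MMP9* probe gave none. The *MMP9* value below comes from the last of the 3 sequences, at position 2076.

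MMP2, 464: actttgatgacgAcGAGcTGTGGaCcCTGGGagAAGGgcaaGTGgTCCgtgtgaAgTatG

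MMP9, 619: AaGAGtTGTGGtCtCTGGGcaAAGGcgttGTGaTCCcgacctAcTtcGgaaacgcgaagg

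MMP9, 2076: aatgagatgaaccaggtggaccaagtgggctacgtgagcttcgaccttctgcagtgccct

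Several genes were tiled with probes that start 1 base apart. For *MMP1* 5 of the 8 probes cover the site that follows, and the capitals mark the 56 bases common to all 5. For *TIMP2* 2 separate probes lie upstream of the tiled site, and these are shown because their ratios differ from it.

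MMP1, 1006: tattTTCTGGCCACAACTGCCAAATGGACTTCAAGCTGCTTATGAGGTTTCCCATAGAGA

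TIMP2, 107: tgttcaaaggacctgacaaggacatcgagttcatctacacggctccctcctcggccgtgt

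TIMP2, 230: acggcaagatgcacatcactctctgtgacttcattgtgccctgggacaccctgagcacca

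The tiled sites of *TIMP1* and *TIMP2* hold the hexamer AATAAA, known as the polyadenylation signal, in capitals in the stretches that follow. The single *MMP3* probe holds the pentamer ATTTA, which is the core of AU-rich elements. AATAAA occurred in 12 of the 34 member probes and in 8.64% of all probes on the array, and ATTTA in 2 and in 7.98%, searched on the sense strand only. Of the 12, 10 are overlapping probes of the 2 tiled sites, so the count stands for 4 sites and is not to be set against the share of all probes.

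TIMP2, 3′ site: ctggaaacagcatgAATAAAacagtcatcc

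TIMP1, 3′ site: tttctccaagacagtgaAATAAAgaactac

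MMP3, 3′ site: acaagtaactgtatATTTAtagactatttg

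Among the collagenases, which make the first cut in fibrillar collagen, no probe could be tested. *MMP1*, the interstitial collagenase, had 8 probes on chromosome 7 between 9334793 and 9337878 (EquCab1, the build of the file headers; minus strand). The 5 probes of the tiled site gave Cy3 signals of 3.75 to 9.70 and Cy5 signals of 5.52 to 21.3 (normalized signal in arbitrary units), none of them well above background. The log2 ratio was exactly 0 on all arrays for 3 of these 5 probes, the value the scanner software writes when both channels are at background. Their neighbour at position 1009, shifted by a single base, gave ratios of 1.50, 1.13, 0.72 and 0.81 on arrays 1 to 4. Probes on the same bases thus gave different ratios at background, so none of these values measured *MMP1*.

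The *MMP1* probe at position 1759, toward the 3′ end, differed from these in the Cy5 channel. Its Cy3 signals were 4.74, 5.80, 6.21 and 5.52, not well above background on any array. Its Cy5 signals were 22.9, 38.1, 35.01 and 12.2, well above background on 2 arrays. Array 4 was the dimmest in Cy5. The ratios were 2.27, 2.71, 2.49 and 1.14. No fold is given, since the control was at background and the HMB channel was measured on 2 of 4 arrays only. The probe at position 1819 ran the same way on arrays 1 to 3, with ratios of 1.59, 2.76 and 2.03, and was at 0 on array 4. Neither passed the filter. When the filter on dim probes was dropped, the probe at 1759 was called (limma adjusted p = 0.0264) and that at 1819 was not (limma adjusted p = 0.126), but so was the tiled-site probe at 1009 (limma adjusted p = 0.0288), whose neighbours on the same bases stood at 0. *MMP13*, a collagenase of cartilage and bone, had 1 probe at chr7:9452679-9452738 with a ratio of exactly 0 on all 4 arrays.

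*MMP3* encodes stromelysin, which cuts proteoglycans, laminin and fibronectin and can activate the precursors of other MMPs. It had 1 probe, at chr7:9364549-9364608 on the minus strand. In the control channel the signals were 4.64, 6.26, 6.51 and 5.43, not well above background on any array. In the HMB channel they were 83.0, 86.4, 117.5 and 48.1, well above background on all 4. The highest control signal was below the lowest HMB signal. The filter had largely fixed this separation, since only the HMB channel was well above background. The log2 ratios were 4.16, 3.79, 4.17 and 3.15, with a mean of 3.82 ± 0.48 (SD, n = 4) and a limma adjusted p of 2.42e-05. The probe passed the filter only through the HMB channel and its control signals are substitutes at background, so the p and the spread say little about the size, for which there is only a lower bound. On the deposited signals the difference was at least 3.84-fold, where the ratio as written in the files would give an FC of 14.1. Normexp is a background correction, run here with an offset of 50 added to both channels of every spot. Such an offset draws the ratios of dim spots toward 0. With it the log2 ratio fell to 0.76 (limma adjusted p = 0.0281), and without background correction it was 1.10 (limma adjusted p = 3.94e-05). Both values lie below the bound, which is 1.94 on the log2 scale, so the bound holds for the deposited signals only. The probe was called under both, on the same control signals at background.

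*MMP1*, *MMP3* and *MMP13* belong to a row of neighbouring MMP genes on chromosome 7. The array held 20 probes of 8 such genes between 9114630 and 9452738, a span of 338 kb: *MMP7*, *MMP20*, *MMP27*, *MMP8*, *MMP1*, *MMP3*, *MMP12* and *MMP13* in this order. Only the *MMP3* probe was tested. For 6 of the 8 genes no probe was well above background in either channel on any array, and the exceptions were *MMP3* and *MMP1*. These 2 genes are direct neighbours in this order, and both had a control level at background.

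**Figure D2:**
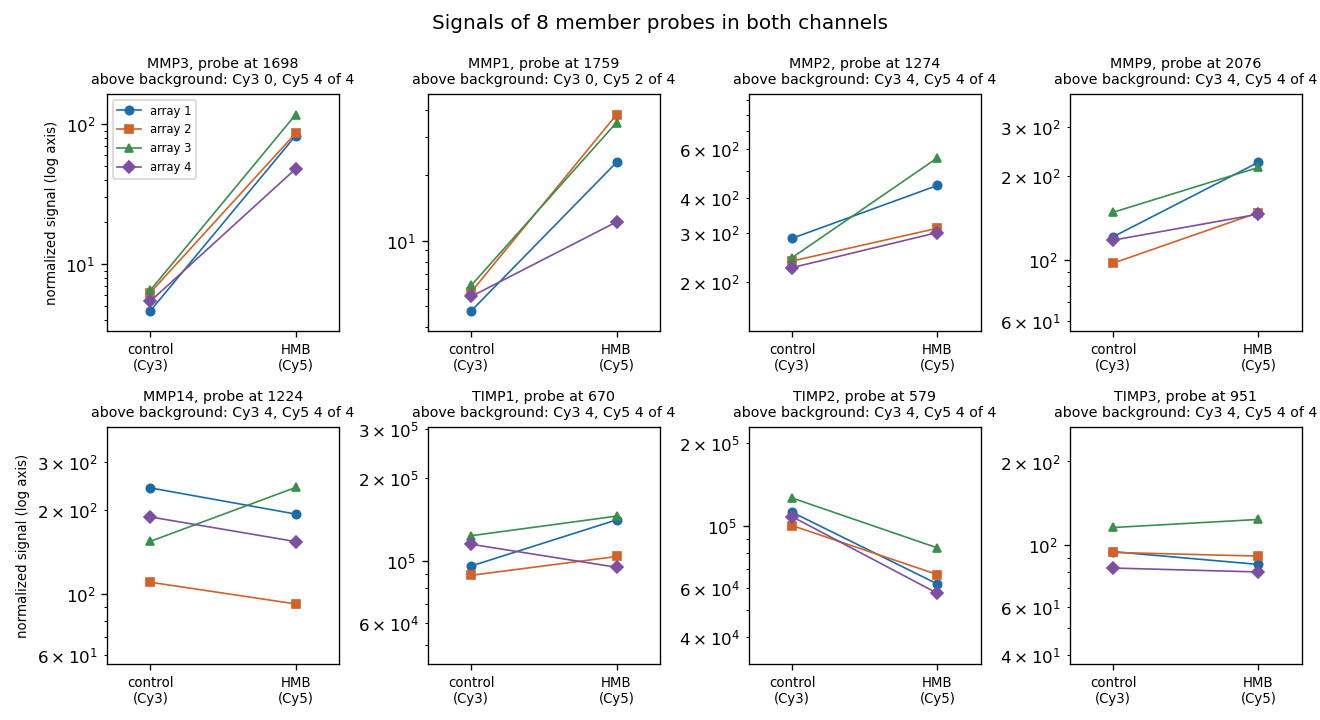
Each panel plots the normalized signal (log axis, arbitrary units) of 1 probe in the control channel and the HMB channel, joined by array; the panel titles give on how many of 4 arrays each channel was well above background. The lines of *MMP3*, *MMP2* and *MMP9* rise and those of *TIMP2* fall on all 4 arrays, while those of *MMP14* and *TIMP1* cross.

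Both gelatinases, which cut denatured collagen and the type of collagen found in basement membranes, were higher with HMB by less than a doubling on average. *MMP2* had 2 probes on chromosome 3, and the genome match of each was split over more than its 60 bases (chr3:7652059-7652350 and chr3:7659687-7663766, plus strand). At the brighter probe, position 1274, the control signals were 286.6, 237.3, 244.3 and 224.7 and the HMB signals 444.5, 311.6, 559.0 and 300.7. Every HMB signal was above every control signal. The log2 ratios were 0.63, 0.39, 1.19 and 0.42, with a mean of 0.66 ± 0.37 (SD, n = 4), an FC of 1.58 and a limma adjusted p of 0.0103. At position 464 the ratios were 0.64, 0.70, 1.57 and 0.61, with a mean of 0.88 ± 0.46 (SD, n = 4) and a limma adjusted p of 0.00703. Array 3 was the highest at both probes. Without it the means were 0.48 and 0.65, and both probes were still called (limma adjusted p = 0.0118 and 0.00319).

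*MMP9*, the gelatinase of leukocytes and of many stimulated cells, was measured by the probe at chr22:34986660-34986719 (plus strand). Its control signals were 120.8, 97.0, 148.0 and 117.4 and its HMB signals 224.2, 147.6, 214.8 and 145.7. The groups overlapped, since array 3 had a control signal as high as the HMB signals of arrays 2 and 4, but the HMB signal was the higher one on each array. The log2 ratios were 0.89, 0.61, 0.54 and 0.31, with a mean of 0.59 ± 0.24 (SD, n = 4), an FC of 1.50 and a limma adjusted p of 0.00458. Array 1, highest here, was not the array that was highest for *MMP2*. The other *MMP9* probe, at position 619, gave signals of 4.21 to 7.76 over both channels and a ratio of 0 on all arrays, so the 2 probes of *MMP9* disagreed on whether the gene was measured at all. At position 464 of *MMP2* the log2 ratio was 0.25 with normexp and loess, below the FC threshold. The calls of *MMP2* and *MMP9* were lost with limma's treat, which tests against the FC of 1.3 itself (adjusted p = 0.267 and 0.247 at the brighter probes), and with the methods' t-test.

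*MMP14* encodes a membrane-anchored MMP that activates the *MMP2* precursor at the cell surface. It had 2 probes on a sequence not placed on a chromosome. At position 1224 the control signals were 241.0, 110.2, 154.7 and 189.4 and the HMB signals 194.0, 92.0, 241.9 and 154.4. The log2 ratios were -0.31, -0.26, 0.64 and -0.30, with a mean of -0.056 ± 0.47 (SD, n = 4). Array 3 ran opposite to the other arrays. The limma adjusted p was 0.806 and the 95% confidence interval of the mean ran from -0.47 to 0.36. The untested probe at position 1381 had the same order, with ratios of -0.82, -0.63, 0.41 and -0.76. Without array 3 the mean at position 1224 was -0.29 (limma adjusted p = 0.0242), an FC below 1.3. Array 3 was thus the highest of the 4 for both genes of the activator and substrate pair, *MMP14* and *MMP2*. This was not particular to the pair. Array 3 was also the highest for other genes, among them *COL3A1*, *PLAT* and *DES*, but not for *MMP9* or *TIMP1*.

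Of the inhibitors, *TIMP1*, a secreted TIMP that also binds the *MMP9* precursor, had 5 probes tiled from chrX:28755136-28755195 on (plus strand). At the brightest, position 670, the control signals were 96085, 88931, 123534 and 115027 and the HMB signals 140867, 103952, 145350 and 95057. The log2 ratios were 0.55, 0.23, 0.23 and -0.28, and array 4 was the only one with a lower HMB signal. The mean was 0.18 ± 0.34 (SD, n = 4) with a limma adjusted p of 0.285, and the means of the 5 probes ran from 0.18 to 0.28 with none called. These probes ranked 243 to 301 in brightness among all 43603 probes, and the part of their brightness in the ratio was not tested. Feature Extraction fits a lowess curve against brightness to correct the dyes, and the call turned on the normalization. The mean at position 670 was 0.42 with normexp and loess, 0.39 without background correction and 0.88 with the array median alone as the reference (limma adjusted p = 0.0255, 0.0318 and 0.00156), all of them called higher.

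*TIMP2* is a secreted TIMP with a double role, since it inhibits MMPs and also serves as the adaptor by which *MMP14* holds the *MMP2* precursor. It was the one member gene called lower. Its 7 probes lay on chromosome 11 (plus strand). At the brightest, chr11:2643354-2643413, the control signals were 112285, 100520, 126369 and 108222 and the HMB signals 61887, 66940, 83507 and 57268. Every HMB signal was below every control signal. The log2 ratios were -0.86, -0.59, -0.60 and -0.92, with a mean of -0.74 ± 0.17 (SD, n = 4), an FC of 1.67 and a limma adjusted p of 0.00087. The 5 probes of this site had means of -0.79 to -0.73.

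The 2 upstream *TIMP2* probes fell less. At chr11:2633428-2633487 the ratios were -0.53, -0.36, -0.20 and -0.59, with a mean of -0.42 ± 0.18 (SD, n = 4) and a limma adjusted p of 0.00805. At chr11:2641586-2641645 they were -0.49, -0.31, -0.25 and -0.52, with a mean of -0.40 ± 0.13 (SD, n = 4) and a limma adjusted p of 0.00617. Within an array the upstream probes lay above the 3′ site by 0.37, 0.27, 0.39 and 0.38, a mean of 0.35 ± 0.058 (SD, n = 4). The probes also differed in brightness, with ranks of 905 and 1123 upstream and 348 to 367 at the 3′ site. With the array median as the only reference, and no lowess, this difference was -0.028 ± 0.093, the mean at the brightest probe was -0.12 (limma adjusted p = 0.205), and none of the 7 probes was called. With normexp and loess the mean there was -0.57 (limma adjusted p = 0.000953). The direction of *TIMP2* was the same under each normalization and its size was not.

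*TIMP3*, which is held in the matrix and also inhibits several ADAM proteases, had 5 probes tiled from chr28:30920379-30920438 on (plus strand). At the brightest, position 951, the control signals were 94.6, 94.0, 115.6 and 82.6 and the HMB signals 85.1, 91.2, 123.6 and 79.9. The ratios were -0.15, -0.044, 0.096 and -0.047, a mean of -0.037 ± 0.10 (SD, n = 4), with a 95% confidence interval of -0.20 to 0.13 and a limma adjusted p of 0.678. The 5 probes had means of -0.037 to 0.10. At this probe the interval lay within the FC of 1.3 under this normalization. It reflects only the spread between 4 ratios, so it does not bound the change of *TIMP3* between cultures. *TIMP4*, a TIMP best known from heart, had 1 probe on chromosome 16 with signals of 5.64 to 17.7, not well above background in either channel on any array, and was not tested.

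**Figure D3:**
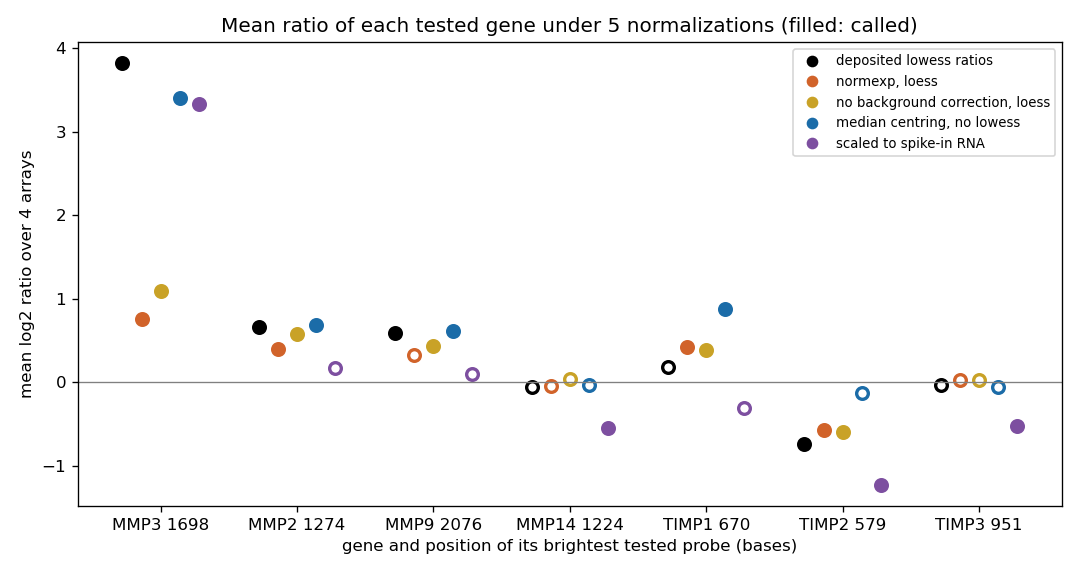
The vertical axis gives the mean log2 ratio over 4 arrays of the brightest tested probe of each gene under 5 normalizations, and filled circles are called. *MMP3* is called under all 5, *TIMP1* ranges from -0.30 to 0.88, and *TIMP2* from -1.23 to -0.12.

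The spike-in RNA that Agilent adds in known amounts gave a mean shift of 0.49 on the log2 scale, so scaling to it lowers every ratio by about that amount, array by array. On that scale the median of all tested gene symbols was -0.58 in place of -0.087. Relative to this median the order of the members was as before. On the spike-in scale itself *MMP3* was still called (3.33, limma adjusted p = 4.62e-05), and *MMP2* and *MMP9* were no longer called (0.17 and 0.10, limma adjusted p = 0.347 and 0.4). *TIMP2* (-1.23), *MMP14* (-0.54) and *TIMP3* (-0.52) were called lower. The shift cannot be told apart from a dye effect, since the dyes were never swapped, so these are not absolute changes.

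The balance between protease and inhibitor was described by the difference of their log2 ratios on the same array, which cancels the shift of the spike-in scale. The difference compares changes and not levels. *MMP2* lay above *TIMP2* by 1.49, 0.98, 1.79 and 1.34 on arrays 1 to 4, a mean of 1.40 ± 0.34 (SD, n = 4). *MMP9* lay above *TIMP2* by 1.75, 1.19, 1.13 and 1.23, a mean of 1.33 ± 0.29. *MMP14* lay above *TIMP2* by 0.55, 0.33, 1.24 and 0.62, a mean of 0.68 ± 0.39, although its own mean was near 0. All of these were above 0 on 4 of 4 arrays. For *MMP2* and *MMP9* that sign was fixed, since their ratios were above 0 and those of *TIMP2* below 0 on every array. It is therefore no result beside the calls of these genes. With 4 arrays an exact sign-flip test cannot reach 0.05, so none was made. The size of these differences depended on the normalization. With median centring they were 0.82 for *MMP2*, 0.73 for *MMP9* and 0.090 for *MMP14*, and with normexp and loess 0.97 for *MMP2* and 0.90 for *MMP9*.

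Against *TIMP1* the differences were smaller. *MMP2* lay above *TIMP1* by 0.48 ± 0.42 and *MMP9* by 0.40 ± 0.13 (SD, n = 4), both above 0 on 4 of 4 arrays, but both turned below 0 with normexp and loess (-0.024 and -0.087) and with median centring (-0.19 and -0.27). The difference of *MMP14* and *TIMP1* was -0.24 ± 0.55 and above 0 on 1 array. No statement on the gelatinases relative to *TIMP1* holds under all normalizations.

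**Figure D4:**
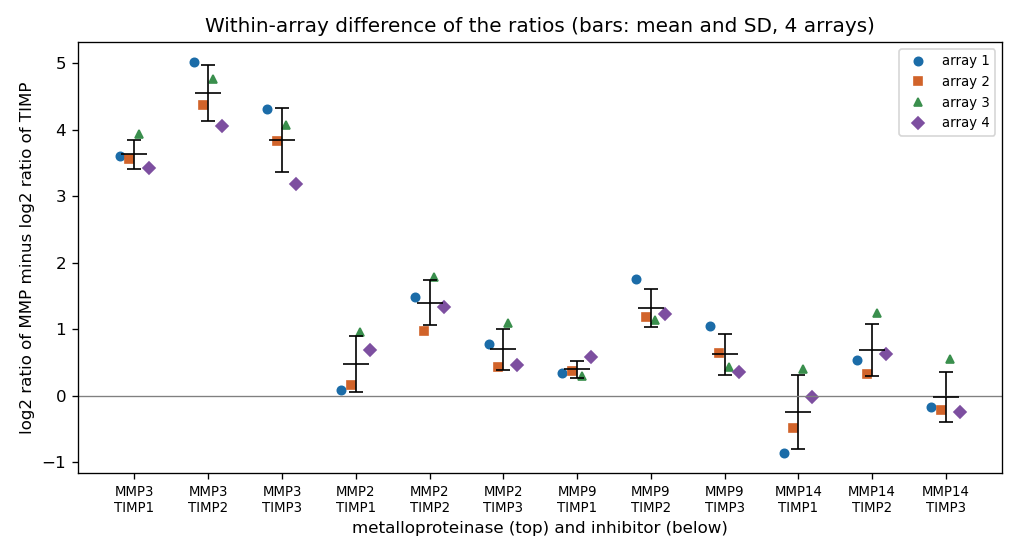
The vertical axis gives the log2 ratio of an MMP minus the log2 ratio of a TIMP on the same array, with 1 symbol per array and the mean with its SD over 4 arrays as black bars. All differences from *TIMP2* lie above 0, and those of *MMP14* from *TIMP1* and *TIMP3* straddle 0.

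Other genes of the same system were read from lists. Of 17 further MMPs, 16 were on the array and 4 were tested, with 0 called higher and 3 lower, beside 10.1% and 17.2% of all symbols: *MMP15*, a membrane-type MMP, at -1.15 ± 0.62, *MMP19* at -0.65 ± 0.21 and *MMP11* at -0.54 ± 0.18 (SD, n = 4; limma adjusted p = 0.00692, 0.00237 and 0.00308). The HMB channel of *MMP15* was well above background on 1 array and that of *MMP19* on 3, against 4 in the control. Both genes thus passed the filter only through the control channel, in which they are high, so their calls are descriptions. The size of the *MMP15* value rests largely on background. With both channels required to be well above background, 1 further MMP was called. *MMP23B* was at 0.28 and not called. All 3 calls were lost with normexp (-0.21, -0.091 and -0.15) and without background correction. Of the activators of MMPs 4 were tested and 2 called higher, beside 10.1% of all symbols. *PLAT*, the tissue plasminogen activator, was at 0.62 ± 0.21 (limma adjusted p = 0.00287) with all 5 of its probes called, and its call was lost with treat, with normexp (0.38) and on the spike-in scale (0.13). *BSG*, a membrane protein known as an inducer of MMPs, was at 0.38 ± 0.26 (limma adjusted p = 0.0282), a call that was lost without array 1, 3 or 4. *PLAU* and *PLAUR*, the urokinase and its receptor, were at 0.16 and 0.19 and were not called.

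Among 7 tested inhibitors and binding partners outside the TIMPs, 1 was higher and 1 lower, a share near the 27.3% called of all symbols. *CD44*, a hyaluronan receptor that can dock *MMP9* at the cell surface, had ratios of 0.60, 0.70, 0.79 and 0.64, a mean of 0.68 ± 0.084 (SD, n = 4; limma adjusted p = 0.000439), a call lost on the spike-in scale (0.19). *SPARC*, a collagen-binding matrix protein, was at -0.63 ± 0.21 (limma adjusted p = 0.00245) at its brightest probe, with 3 of 8 probes called, and at 0.18 with median centring. Of 12 tested ADAM and ADAMTS proteases, relatives of the MMPs that *TIMP3* can inhibit in part, *ADAMTS4* (0.74 ± 0.21) and *ADAMTS3* (0.59 ± 0.14) were higher and *ADAM15* (-0.71 ± 0.35) lower (limma adjusted p = 0.00137, 0.00141 and 0.0066). *ADAMTS4* passed the filter only through the HMB channel, so its call is a description. It was lost with normexp (0.15), without background correction and on the spike-in scale. *ADAMTS3* had 1 of 2 probes called and lost its call with treat and on the spike-in scale. *ADAM15* lost its call with the methods' t-test, treat, normexp and without the filter on dim probes. *ADAMTS8* was also called lower (limma adjusted p = 0.00103), but it passed the filter only through the control channel. Its HMB channel was not well above background on any array, the difference was at least 1.32-fold, and the call was lost with normexp (-0.13) and without background correction. With 4 of 12 called, 2 in each direction, the share is near the 27.3% of all symbols. The others were not called. The list median was -0.10, beside -0.087 over all tested symbols.

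Factors of the AP-1, ETS and NF-kB families, whose sites are known in several MMP promoters, had 5 of 11 tested genes called higher and 0 lower, beside 10.1% and 17.2% of all symbols. They were *ETS1* (0.99 ± 0.30), *NFKB1* (0.95 ± 0.16), *RELB* (0.90 ± 0.32), *FOSL2* (0.65 ± 0.22) and *JUNB* (0.45 ± 0.24), with limma adjusted p of 0.00115, 0.000294, 0.00191, 0.00255 and 0.0128. *FOS*, *FOSB* and *RELA* were at 0.19, 0.21 and 0.16 and were not called. *ETS2*, *ETV4* and *ETV5* were at 0.24, 0.39 and -0.28 and were not called either. The call of *JUNB* was lost without array 3, with the methods' t-test, with treat and without the filter on dim probes. That of *FOSL2* was lost with treat. The list median was 0.39. With the spike-in scale the calls of *FOSL2* and *JUNB* were lost (0.16 and -0.040), and with normexp those of *ETS1* and *RELB* (0.23 and 0.29).

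**Figure D5:**
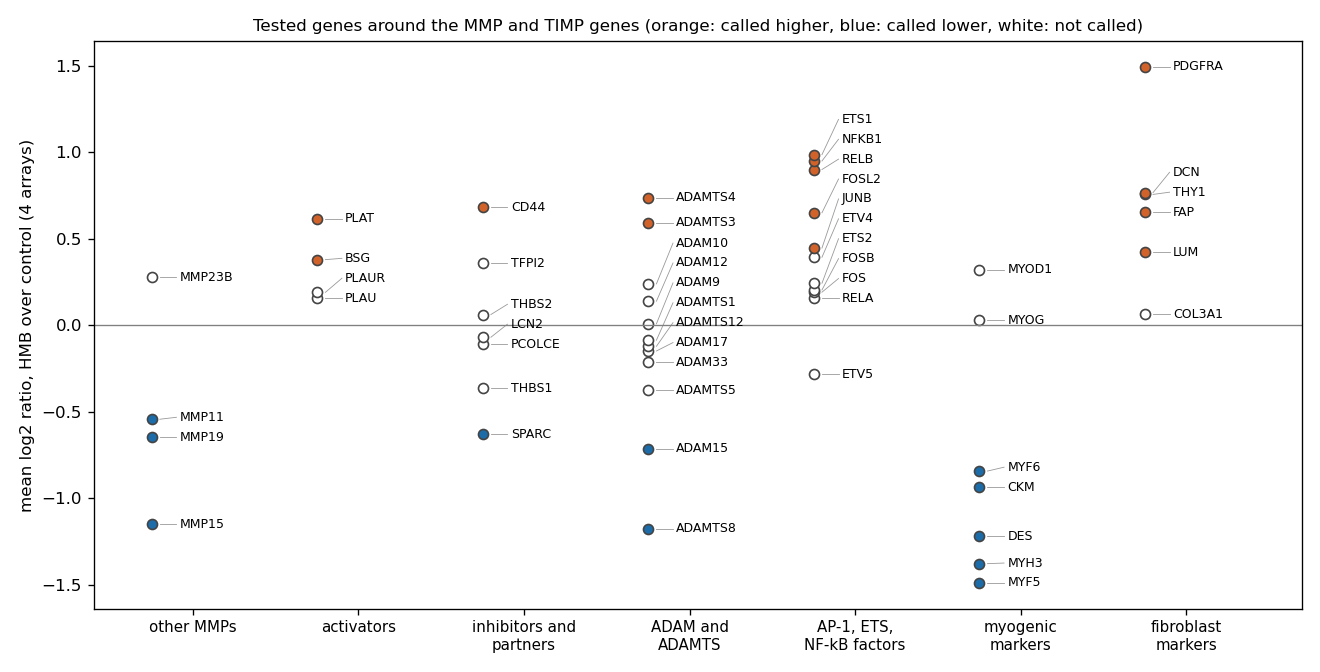
Each circle is the mean log2 ratio over 4 arrays of 1 tested gene, by list; orange was called higher, blue lower and white not called. The factors of AP-1, ETS and NF-kB and the fibroblast markers lie mostly above 0 and the myogenic markers mostly below 0.

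Markers of cell types moved with these results. Fibroblasts are a known source of *MMP2*, *MMP3* and the TIMPs, and the isolation included pre-plating to remove them. Of the fibroblast markers 7 were on the array, 6 were tested and 5 were higher, beside 10.1% of all symbols. They were *PDGFRA* (1.49), *DCN* (0.77), *THY1* (0.76), *FAP* (0.66) and *LUM* (0.42), with *COL3A1* at 0.064 and not called at its brightest probe. Of the 7 tested *COL3A1* probes 3 were called higher. At the brightest the value was 0.32 with normexp, 0.84 with median centring and -0.42 on the spike-in scale. On the spike-in scale *PDGFRA* stayed called, and the calls of *DCN*, *THY1*, *FAP* and *LUM* were lost (0.28, 0.27, 0.17 and -0.065). Those of *FAP* and *LUM* were also lost with treat, and that of *LUM* with normexp (0.37). The summed signal of the 7 fibroblast markers, most of it *COL3A1*, was 197892 to 226403 in the control and 228449 to 347718 in the HMB channel. Of the 7 tested myogenic markers 5 were lower, beside 17.2% of all symbols: *MYF5* (-1.49), *MYH3* (-1.38), *DES* (-1.22), *CKM* (-0.93) and *MYF6*. *MYF6* passed the filter only through the control channel, was at least 1.18-fold lower, and lost its call with normexp (-0.15) and without background correction. *MYOD1* and *MYOG*, which drive differentiation, were at 0.32 and 0.031 and were not called. The summed signal of the 7 myogenic markers, most of it *MYH3*, was 105079 to 118925 in the control and 37261 to 60624 with HMB. In RNA from a whole culture, fewer cells of a type and less RNA per cell cannot be told apart, and the part of these shifts in the MMP and TIMP ratios was not tested.

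Leukocytes carry *MMP9*. Of 8 leukocyte markers on the array, *AIF1*, *ITGAM* and *CD3E* were not well above background in either channel on any array, 3 were tested, and *CD68*, which is not limited to leukocytes, was higher (0.88 ± 0.20, SD, n = 4; limma adjusted p = 0.00063). *CD14* (0.20) and *MS4A1* (-0.16) were not called (limma adjusted p = 0.0966 and 0.159). The summed signal of the list, most of it *CD14*, was 3908 to 4791 in the control and 4361 to 6513 with HMB. Of 6 endothelial markers none was tested, and *PECAM1*, *VWF*, *CDH5* and *KDR* were not well above background on any array.

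Across arrays the ratios of all tested probes correlated at 0.84 to 0.92 (Pearson's r over probes, which are not independent), so no array stood apart as a whole. Between 55.2% and 61.8% of spots were well above background per channel, 13 to 35 spots per array were marked by the software and left out, and 0 were saturated, the bright *TIMP1* and *TIMP2* spots included.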

How the data were processed

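HMB-treated and control RNA was hybridised together to each of 4 Agilent horse arrays with 45220 spots each. Per the file headers, Feature Extraction 10.10.1.1 read the intensity of both channels, subtracted background and normalized within the array by linear and lowess steps. The authors deposited the log10 ratio of Cy5 over Cy3 that it wrote, and their table of normalized values holds the same ratios. These were converted here to log2. For dim spots Feature Extraction writes a substitute signal, so their ratios do not measure the size of a change.

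Control spots (1264 positive, 153 negative) and spots marked non-uniform or population outliers were left out. The test was limma 3.58.1 in R 4.3.3, an intercept model with empirical Bayes moderation and Benjamini-Hochberg adjustment over 24673 probes, checked on simulated data. A tested probe needed a ratio on at least 3 arrays. A bound is the mean of the bright channel over the lowest signal well above background in the dim one. Precision is limited by the number of arrays. Gene names are those of the probe annotation, for a few further MMPs from its description.

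All 10 members were named with every probe, and, from each further list, called genes (up to 5 per direction). The members and lists were chosen with earlier results of these data known. Alternatives were other tests, background corrections, normalizations, filters, a correction for probe GC content, the mean of a gene's probes and leaving out each array. Protein and promoter sequences were not used here.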

Additional observations from a re-analysis of the deposited data

Results flagged for a closer look

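Of the 22 tested member probes, 2 had 1 array far from the other 3, by Dixon's test of the gap over the range; chance marks about 1 in 20 groups. The *MMP2* probe at position 464 had a log2 ratio of 1.57 on array 3, with the other arrays at 0.61 to 0.70. The *MMP14* probe at position 1224 had 0.64 on array 3, with the others at -0.31 to -0.26.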

How the results depend on the processing

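Of the 7 tested genes, *MMP3* could not be tested when both channels had to be above background; under the other alternatives it was called, but always on control signals at background, so this says nothing about stability. *TIMP2* at its brightest probe was called lower under all but median centring. Its upstream probes lost their calls more often. The probe at position 107 also lost it with the methods' t-test, with treat and without array 4. The probe at position 230 also lost it with treat, with the GC correction and without array 1 or array 4. *MMP2* and *MMP9* stayed called with each array left out (0.48 to 0.75 and 0.48 to 0.68) and were lost with treat, the methods' t-test and the spike-in scale, *MMP2* also without the filter on dim probes and *MMP9* also with normexp, as was the *MMP2* probe at position 464. The causes were not tested. Signal over background limits *MMP1*, *MMP3*, *MMP13* and *TIMP4*.

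Of all tested probes, treat called 2822 (1542 higher, 1280 lower), normexp with loess 3538 (1945 and 1593), no background correction 4439 (1770 lower) and the spike-in scale 18572 (1247 and 17325), in place of 7048 (2997 and 4051). Member probes called higher numbered 1 with the methods' t-test, treat and the spike-in scale, 7 with normexp, 9 without background correction and 9 with median centring, and 4 to 7 with 1 array left out (7 without array 4). Member probes called lower numbered 0 with median centring and 13 with the spike-in scale. Member genes called higher numbered 1 with the t-test, treat and the spike-in scale, and member genes called lower 0 with median centring and 3 with the spike-in scale.

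The further MMPs called numbered 0 with treat, normexp and no background correction and 1 with both channels above background. The activators called numbered 1 with the t-test, 0 with treat, normexp and the spike-in scale, and 1 to 2 with 1 array left out. The inhibitors and partners called numbered 1 with treat, normexp and median centring, 5 with the spike-in scale and 2 to 4 with 1 array left out (4 without array 3). The ADAM and ADAMTS proteases called numbered 2 with treat, 1 with normexp, 2 without background correction, 8 with the spike-in scale and 2 with both channels above background. The AP-1, ETS and NF-kB factors called numbered 3 with treat and 3 with normexp.

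Signs turned in the following. *MMP14* at its brightest probe was 0.042 without background correction and -0.29 to 0.030 with 1 array left out. *TIMP3* at its brightest probe was 0.028 with normexp, 0.027 without background correction, 0.041 as the mean of its probes and -0.081 to 0.0018 with 1 array left out; at position 947 it was 0.056 with normexp and 0.0096 without background correction. On the spike-in scale *TIMP3* was -0.38, -0.39 and -0.42 at the 3 probes whose ratio had been above 0 and *TIMP1* was -0.30, -0.27, -0.26, -0.22 and -0.20. The difference of *MMP14* and *TIMP3* was 0.015 without background correction, 0.025 with median centring and -0.21 to 0.057 with 1 array left out. The difference of *MMP2* and *TIMP1* was -0.024 with normexp and -0.19 with median centring, and that of *MMP9* and *TIMP1* was -0.087 and -0.27. The ratio of each array pairs its 2 channels, so every test was paired by array, and the pairing was not varied.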
